A study of Mus musculus with 17 samples.

Results

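The genes described here build, assemble or switch on the motile cilium, and 35 of them were followed across 17 RNA-seq libraries of whole mouse lung. They were listed by name, from what each is known to do in the cilium, with earlier results of these data already known. The list holds 3 transcription factors of ciliogenesis, dynein arm subunits, dynein assembly and docking factors, axonemal rulers, radial spoke and central apparatus proteins, tektins and a few other ciliary components. Of the 35 genes, 33 had a line in both FPKM tables, each of which held 24327 genes. Dnah3 and Dnah12, which encode inner arm dynein heavy chains, were not analysed here.

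The libraries formed 2 experiments. The first held 3 libraries labelled control (Control below) and 3 labelled LysMcre;Nlrp3A350V (Nlrp3 mutant). The second held 4 libraries labelled Il18r1 control, 3 labelled LysMcre;Nlrp3A350V;Il181r+/- (Il18r1 het mutant) and 4 labelled LysMcre;Nlrp3A350V;Il181r-/- (Il18r1 null mutant). Nlrp3 encodes an inflammasome sensor, A350V is an overactive allele of it, LysM-cre is a Cre driver of myeloid cells and not of ciliated cells, and Il18r1 encodes the IL-18-binding chain of its receptor. All 3 mutant groups carry the driver and the A350V allele. The labels name no allele, Cre included, for either control group and give no age, sex or litter.

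A motile cilium is a whip-like extension built on an axoneme, in which outer doublet microtubules surround a central pair. Dynein arms on the doublets slide them past each other, and radial spokes, the central apparatus and the nexin links turn the sliding into a regular beat. In the lung such cilia are carried by the multiciliated cells of the conducting airways, where they move mucus, and the alveoli have none. The transcription factor FOXJ1, working with RFX factors, switches on the genes of the motile axoneme, and inherited loss of many of the genes below causes primary ciliary dyskinesia in humans.

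The libraries held between 13147 and 13450 genes at 1 FPKM or more. FPKM, fragments scaled by transcript length and library size, is a level per length, so it can be compared between genes. Depth, estimated against replicate 1 of the control group of the same experiment, ran from 0.750 (Il18r1 het mutant replicate 3) to 1.15. Il18r1 itself stood at 17.9 to 22.2 FPKM in Control, 40.0 to 43.4 in the Nlrp3 mutant, 13.4 to 15.0 in the Il18r1 control, 29.9 to 31.2 in the het mutant and 6.98 to 9.00 in the null mutant. Sex-linked transcripts moved with genotype: Xist was at 37.7 FPKM or more in every Nlrp3 mutant and het mutant library and at 0.0426 or less in every control library, while in the null mutant group replicates 2 and 4 had Xist at 69.2 and 73.0 FPKM and replicates 1 and 3 at 0.0193 and 0.0370. The genotype and the sex-linked transcripts therefore cannot be told apart in Nlrp3 mutant against Control or in het mutant against Il18r1 control.

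All 33 genes had a level above 0 in every library, with 1 gene far above the rest. Tppp3, a tubulin polymerization-promoting protein of ciliated cells that also marks tendon sheath cells, lay between 240 and 429 FPKM. Foxj1 was second in both experiments, at 14.7 to 33.1 FPKM, and the radial spoke head gene Rsph9 followed at 8.46 to 24.1 FPKM. At the low end, Dnah7a stayed between 0.0441 and 0.144 FPKM and Dnah1, Dnah2, Dnah7b, Dnah11, Hydin and Spag17 never reached 1 FPKM. Dnah7a and Dnah7b are near-identical copies, as are Spag6 and Spag6l, so their levels are uncertain where reads were shared.

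Summed without Tppp3, the other 32 genes reached 98.0, 108 and 117 FPKM in Control and 152, 170 and 156 FPKM in the Nlrp3 mutant. In the second experiment the sum was 86.2, 107, 108 and 76.9 FPKM in the Il18r1 control, 130, 134 and 154 FPKM in the het mutant, and 112, 95.1, 104 and 93.7 FPKM in the null mutant. Both groups with intact or heterozygous Il18r1 and the A350V allele thus lay above their controls without overlap, and the null mutant lay within and just above the range of the Il18r1 control. Within groups some libraries stood out: Control replicate 1 was the lowest of its group for 20 of the 33 genes and Il18r1 control replicate 4 for 22. Het mutant replicate 3 was the highest of its group for 19. The shares over all genes are not given here, so a trait of these genes cannot be told from one of the library. These are bulk samples, in which more ciliated cells and more RNA per ciliated cell cannot be told apart.

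**Figure D1:**
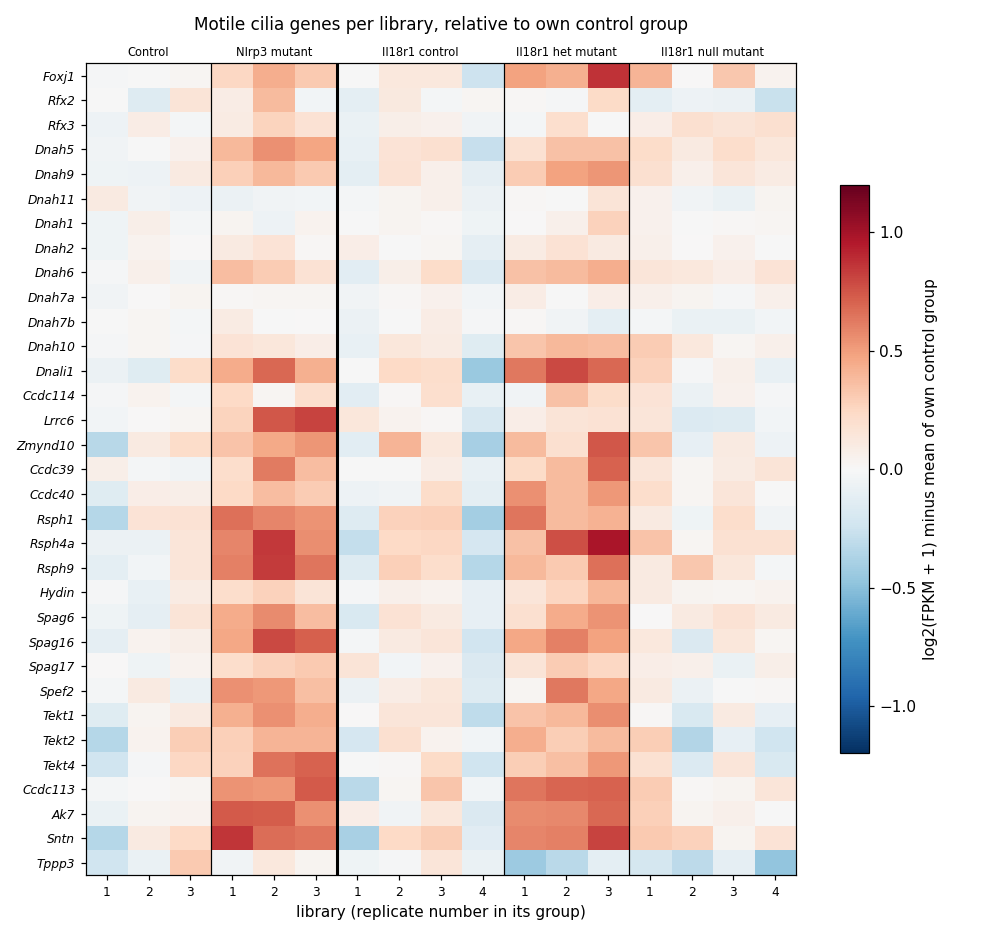
Level of each of the 33 motile cilia genes (lines) in each of the 17 libraries (columns), as log2(FPKM + 1) minus the mean of the control group of the same experiment, red for higher and blue for lower. Columns of the Nlrp3 mutant and the Il18r1 het mutant are red for most genes, while those of the Il18r1 null mutant are pale.

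The first comparison set the Nlrp3 mutant against Control, groups that differ in sex-linked transcripts as well as in the labelled alleles. In the Nlrp3 mutant 20 of the 26 tested genes rose and none fell, with a median log2 fold change of 0.47, against 0.0023 over all genes tested. Among all tested genes 28.0% rose and 27.6% fell (limma on log2(FPKM + 1), adjusted p under 0.05), so the cilia genes' share of 76.9% stands against that background. Values of the 2 groups did not overlap, with the mutant higher, for 22 of the 26 tested genes, against a background of 32.2%, and for 24 of all 33 genes with no filter on low levels, against 26.7%. Without that filter limma called 21 of the 33 higher and none lower, against a background of 21.2%. Fold changes on this scale understate the change of low genes. Dnah10 and Spef2 passed the filter only because all 3 mutant libraries were at 1 FPKM or more.

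Foxj1 (GRCm38 chr11:116330704-116335399, minus strand), the transcription factor that commits a cell to motile cilia, was at 21.2, 21.3 and 21.7 FPKM in Control and at 25.6, 29.4 and 26.9 FPKM in the Nlrp3 mutant. The 3 mutant libraries were all above the 3 controls. Its log2 fold change was 0.34 ± 0.06 (SE), adjusted p 0.00235, and 0.0838 when libraries were brought to equal total FPKM. Rfx2 and Rfx3, which bind the X-box of ciliary promoters, had log2 fold changes of 0.15 ± 0.13 and 0.18 ± 0.08 and were not called (adjusted p 0.364 and 0.101).

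The radial spoke head, which relays signals between the central pair and the dynein arms, rose as a whole. Rsph9 went from 12.0, 12.7 and 14.6 FPKM to 20.3, 24.1 and 20.9, a log2 fold change of 0.69 ± 0.09 with adjusted p 0.000452. Rsph4a went from 2.68, 2.68 and 3.26 to 4.81, 5.98 and 4.70 FPKM and changed by 0.67 ± 0.11 (adjusted p 0.00134). Rsph1 went from 5.22, 7.85 and 7.91 to 11.5, 10.8 and 10.4 FPKM and changed by 0.59 ± 0.14 (adjusted p 0.00735). In none of these 3 genes did a mutant library come down to the control range.

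Genes of the central apparatus rose as well. Spag16 was at 2.16, 2.49 and 2.57 FPKM in Control and 3.69, 4.90 and 4.58 FPKM in the mutant (log2 fold change 0.66 ± 0.11, adjusted p 0.00143). Spag6 rose by 0.46 ± 0.10 and Spef2, which was at or below 0.913 FPKM in every control library, by 0.48 ± 0.11. Hydin and Spag17, both of the central pair and below the filter, had mean levels of 0.463 and 0.492 FPKM in Control and 0.695 and 0.795 FPKM in the mutant. Their groups did not overlap, and without the filter limma gave adjusted p 0.0406 for Hydin and 0.0093 for Spag17. With a pseudocount of 0.1 and a filter of 0.1 FPKM the values were 0.0840 for Hydin, which is not called, and 0.0309 for Spag17.

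Among the dynein motors, the outer arm heavy chain Dnah5, which carries the force of the beat, rose from 1.27, 1.32 and 1.41 FPKM to 2.06, 2.40 and 2.23 FPKM (0.47 ± 0.09, adjusted p 0.00305). Dnah9, the heavy chain of the distal outer arm, changed by 0.33 ± 0.10 (adjusted p 0.0244), and Dnali1, a light intermediate chain of the inner arm, by 0.52 ± 0.12 (adjusted p 0.00614). The heavy chains did not all follow. Of the inner arm, Dnah6 rose by 0.28 ± 0.10 (adjusted p 0.0400) and Dnah10 changed by 0.13 ± 0.09 (adjusted p 0.276). Dnah1, Dnah2, Dnah7a and Dnah7b overlapped between the groups. Dnah11, an outer arm heavy chain, overlapped as well. It was the only gene of the 33 whose mean was lower in the mutant, at 0.763 ± 0.112 FPKM (SD, n = 3) in Control and 0.700 ± 0.0254 FPKM in the mutant.

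Factors that put the arms together or set their spacing moved in the same direction. Lrrc6, which encodes an assembly factor of the cytoplasm, stood at 0.992, 1.04 and 1.07 FPKM in Control and at 1.44, 2.41 and 2.56 FPKM in the mutant, where replicate 1 was well below the other 2 libraries and still above every control. It rose by 0.60 ± 0.15 (adjusted p 0.01), and Zmynd10, its partner in assembly, by 0.44 ± 0.14 (adjusted p 0.0317). Ccdc39 and Ccdc40, the pair that forms the ruler setting the repeat along the doublet, rose by 0.40 ± 0.12 and 0.31 ± 0.10 (adjusted p 0.0188 and 0.0374). Ccdc114, which docks the outer arm, changed by 0.15 ± 0.09 and was not called (adjusted p 0.176).

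The remaining structural genes included the largest log2 fold change of the set on the log2(FPKM + 1) scale, which understates low genes. By the ratio of mean FPKM Lrrc6 changed more, from 1.03 to 2.14 FPKM, than Sntn, from 4.88 to 8.60 FPKM. Sntn, an apical protein of the ciliary tip, went from 3.58, 5.23 and 5.83 FPKM to 9.49, 8.24 and 8.06 FPKM (0.72 ± 0.15, adjusted p 0.00398). Ak7, an adenylate kinase of the axoneme, went from 2.69, 2.99 and 3.00 FPKM to 5.49, 5.46 and 4.70 FPKM, with the smallest adjusted p of the set (0.67 ± 0.09, adjusted p 0.000415). Ccdc113 rose by 0.60 ± 0.08. Among the tektins, filaments inside the doublet wall, Tekt1 rose by 0.47 ± 0.08 and Tekt4 by 0.55 ± 0.15 (adjusted p 0.0021 and 0.0174). Tekt2 (0.37 ± 0.15, adjusted p 0.0718) was not called, and Control replicate 3 at 3.93 FPKM lay inside the mutant range of 3.92 to 4.34. Its adjusted p was 0.0150 without that library and 0.00654 in a robust fit with array weights. Tppp3 was at 240, 268 and 351 FPKM in Control and 275, 309 and 288 FPKM in the mutant, so the groups overlapped and its log2 fold change was 0.04 ± 0.13 (adjusted p 0.818).

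Of the 20 calls, 13 were kept in all 6 fits that left out 1 library. Spef2 was kept in the 3 fits that tested it, since it fell below the filter when a mutant library was left out. The calls of Ccdc39, Ccdc40, Dnah6, Dnah9, Tekt4 and Zmynd10 were each lost in 2 or more of these fits, with adjusted p up to 0.124 (Dnah6 without Nlrp3 mutant replicate 1). The total FPKM of a library was higher in the mutant, at 529612 ± 19824 against 472007 ± 11062 (SD, n = 3 each). Scaling to equal totals put the median of all genes at -0.15 on the log2 scale and left 14 of the 26 genes higher and none lower. Of all tested genes 17.6% were then higher and 41.4% lower. The share of higher genes among all calls was 50.3% as deposited and 29.9% after that scaling. Relative to the median of all genes, the genes' median was 0.46 before and 0.48 after it. Such scaling shifts nearly all genes alike, so this difference could hardly change and is no check of the calls.

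The second experiment repeated the mutant with 1 intact copy of Il18r1 and its own controls. In the het mutant 18 of the 24 tested genes rose and 1, Tppp3, fell, with a median log2 fold change of 0.44 against -0.02 over all tested genes. The background was 27.3% higher and 28.9% lower, and the share of the cilia genes that rose was 75.0%. Groups did not overlap, with the het mutant higher, for 17 of the 24 tested genes, against 27.4%, and for 21 of the 33, against 22.7%. Without the filter 22 of the 33 rose and 1 fell, with backgrounds of 21.8% and 21.2%. Dnah9 passed the filter only through the 3 het mutant libraries. In the authors' deposited table of the same libraries, which rests on counts, 22 of the 33 genes were higher and 1 lower at an adjusted p under 0.05, against backgrounds of 23.5% and 22.8%.

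**Figure D2:**
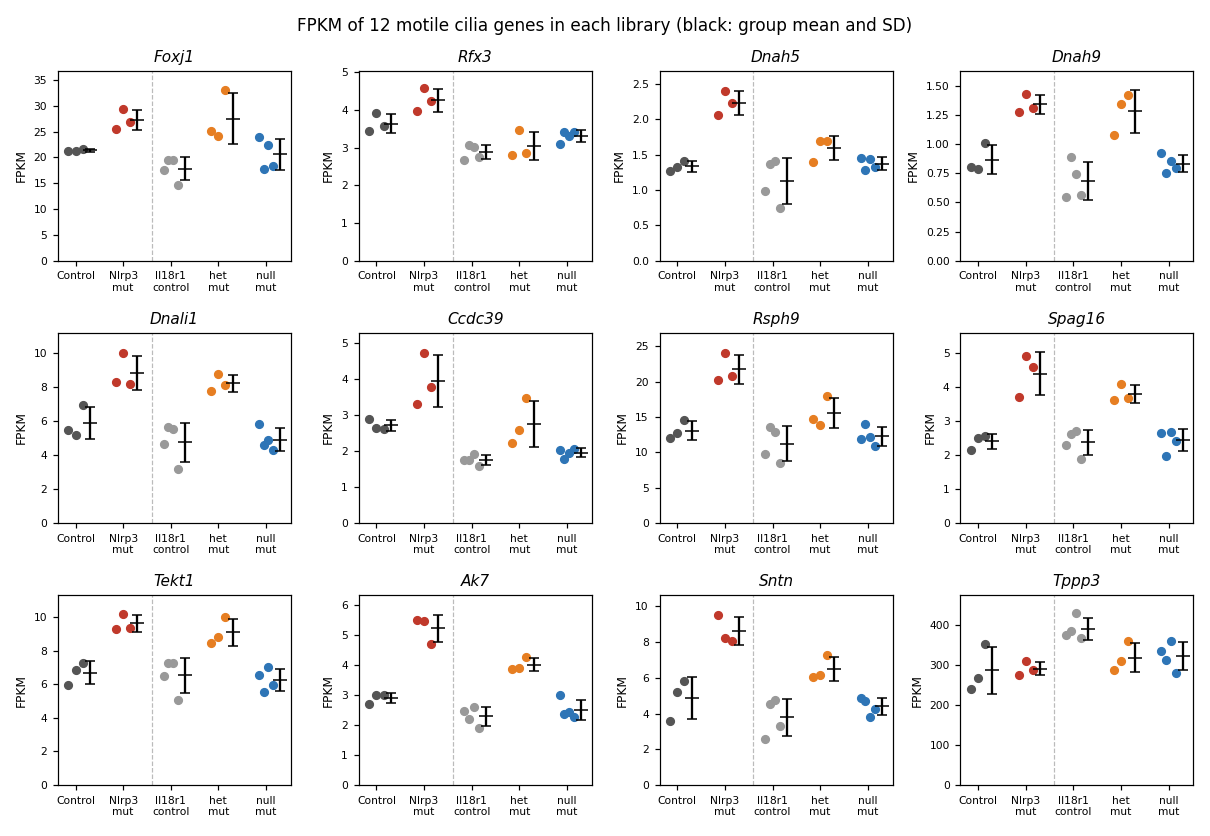
FPKM of 12 motile cilia genes in each library, 1 panel a gene, with points for libraries, black bars for the group mean and SD, and a dashed line between the 2 experiments. Ak7, Spag16 and Dnali1 are higher in the Nlrp3 mutant and the het mutant than in any control of the same experiment, and Tppp3 is highest in the Il18r1 control.

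Foxj1 was at 17.6, 19.5, 19.5 and 14.7 FPKM in the Il18r1 control and at 25.2, 24.2 and 33.1 FPKM in the het mutant. No het mutant library reached down to a control, although replicate 3 stood well above the other 2. The log2 fold change was 0.59 ± 0.13 (adjusted p 0.00258). Rfx2 and Rfx3 changed by 0.08 ± 0.08 and 0.06 ± 0.07 and overlapped between the groups (adjusted p 0.450 and 0.540).

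Most axonemal parts that rose in the first experiment rose in the second too. On the log2(FPKM + 1) scale the light intermediate chain Dnali1 had the largest change, from 4.62, 5.63, 5.53 and 3.14 FPKM to 7.75, 8.76 and 8.08 FPKM (0.71 ± 0.15, adjusted p 0.00142). Rsph4a followed, from 1.64, 2.80, 2.84 and 1.81 FPKM to 3.12, 4.52 and 5.36 FPKM (0.70 ± 0.17, adjusted p 0.00336). Ak7 again had the smallest adjusted p, with 2.47, 2.18, 2.60 and 1.90 FPKM in the controls and 3.86, 3.90 and 4.27 FPKM in the het mutant (0.61 ± 0.09, adjusted p 0.000177). For these 3 genes the highest control stayed below the lowest het mutant library. In the authors' deposited table the largest log2 fold change was that of Ccdc40 (0.96 ± 0.19), and Dnali1 had 0.77 ± 0.17. Ccdc113, Sntn and Spag16 rose by 0.68 ± 0.13, 0.67 ± 0.15 and 0.51 ± 0.10, all without overlap.

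The rulers Ccdc39 (0.44 ± 0.10) and Ccdc40 (0.48 ± 0.10), the spoke head genes Rsph1 (0.48 ± 0.15) and Rsph9 (0.46 ± 0.15), and the central apparatus gene Spag6 (0.39 ± 0.11) rose. So did the 3 tektins, by 0.37 to 0.43, and the heavy chains Dnah5 (0.29 ± 0.11), Dnah6 (0.39 ± 0.10) and Dnah9 (0.44 ± 0.10). The groups of Dnah5 overlapped, with a highest control of 1.41 and a lowest het mutant library of 1.40 FPKM, and its adjusted p of 0.0437 became 0.0846 in a fit of these 2 groups alone and 0.146 at equal total FPKM. The assembly factors gave no call here: Zmynd10 changed by 0.44 ± 0.18 (adjusted p 0.0619) and Lrrc6 by 0.14 ± 0.10 (adjusted p 0.273), with overlapping groups. Whether Lrrc6 differed between the experiments was not tested, since the tables were normalized separately. Below the filter, Hydin stood at 0.242 to 0.390 FPKM in the controls and 0.466 to 0.748 FPKM in the het mutant, and Dnah10 at 0.388 to 0.682 and 0.924 to 1.01 FPKM. The authors' deposited table gave log2 fold changes of 0.90 ± 0.19 for Hydin, 0.81 ± 0.16 for Dnah10, 0.82 ± 0.20 for Spag17 and 0.85 ± 0.19 for Spef2, with adjusted p between 1.24e-06 and 0.000184.

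Tppp3 went the other way. It was at 375, 385, 429 and 367 FPKM in the Il18r1 control and at 287, 309 and 359 FPKM in the het mutant, so the groups did not overlap. Its log2 fold change was -0.29 ± 0.10 (adjusted p 0.0209), and -0.27 ± 0.09 in the authors' deposited table (adjusted p 0.00505). Without Il18r1 control replicate 3, het mutant replicate 1 or het mutant replicate 2 the adjusted p was 0.0583, 0.0882 and 0.0632. The null mutant libraries stood at 336, 313, 360 and 279 FPKM, also below every control.

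Of the 24 genes tested in both tables, 17 rose in both the Nlrp3 mutant and the het mutant, which is 17 of the 20 that rose in the first and 17 of the 18 that rose in the second. That is 70.8% of the 24, against 20.5% of all 13443 genes tested in both tables. Dnah9, among the 17, passed the filter of the second experiment only through the 3 het mutant libraries. The experiments share no library, but both set libraries with Xist against libraries without it. Of the 19 calls in the second experiment, 12 were kept in all 7 fits that left out 1 library. Dnah9 was kept in the 4 fits that tested it, those with all 3 het mutant libraries. Dnah5, Rsph1, Rsph9, Tekt2, Tekt4 and Tppp3 lost theirs at least once, and Tekt2 in 6 of 7 fits with adjusted p up to 0.10 (without Il18r1 control replicate 1). At equal total FPKM the median of all genes shifted to -0.16 and 12 genes stayed higher and 1 lower of 23 tested. Of all tested genes 18.1% were then higher and 47.2% lower. The share of higher genes among all calls went from 48.6% to 27.7%.

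The next question was whether the change depends on the remaining copy of Il18r1, with both groups carrying the driver and the A350V allele. In the null mutant 16 of the 24 tested genes fell against the het mutant and none rose, with a median log2 fold change of -0.38 against 0.0066 over all tested genes. The background was 26.5% lower and 26.8% higher, and the share of the cilia genes that fell was 66.7%. The groups did not overlap, with the null mutant lower, for 17 of the 24 tested genes, against 26.0%, and for 21 of the 33, against 21.0%. Dnah9, counted among the 16 and the 17, passed the filter only through the 3 het mutant libraries. Without the filter 18 of the 33 fell, against 20.6%, and none rose, against 19.7%, while none was higher without overlap, against 20.4%. The authors' deposited table had 21 of the 33 lower and none higher, against 22.3% and 21.8%. There Hydin and Spef2, below the filter on FPKM, had log2 fold changes of -0.69 ± 0.16 and -0.75 ± 0.16 (adjusted p 0.000131 and 1.2e-05). This comparison uses the same het mutant libraries as the one against the Il18r1 control, so the 2 are not independent.

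**Figure D3:**
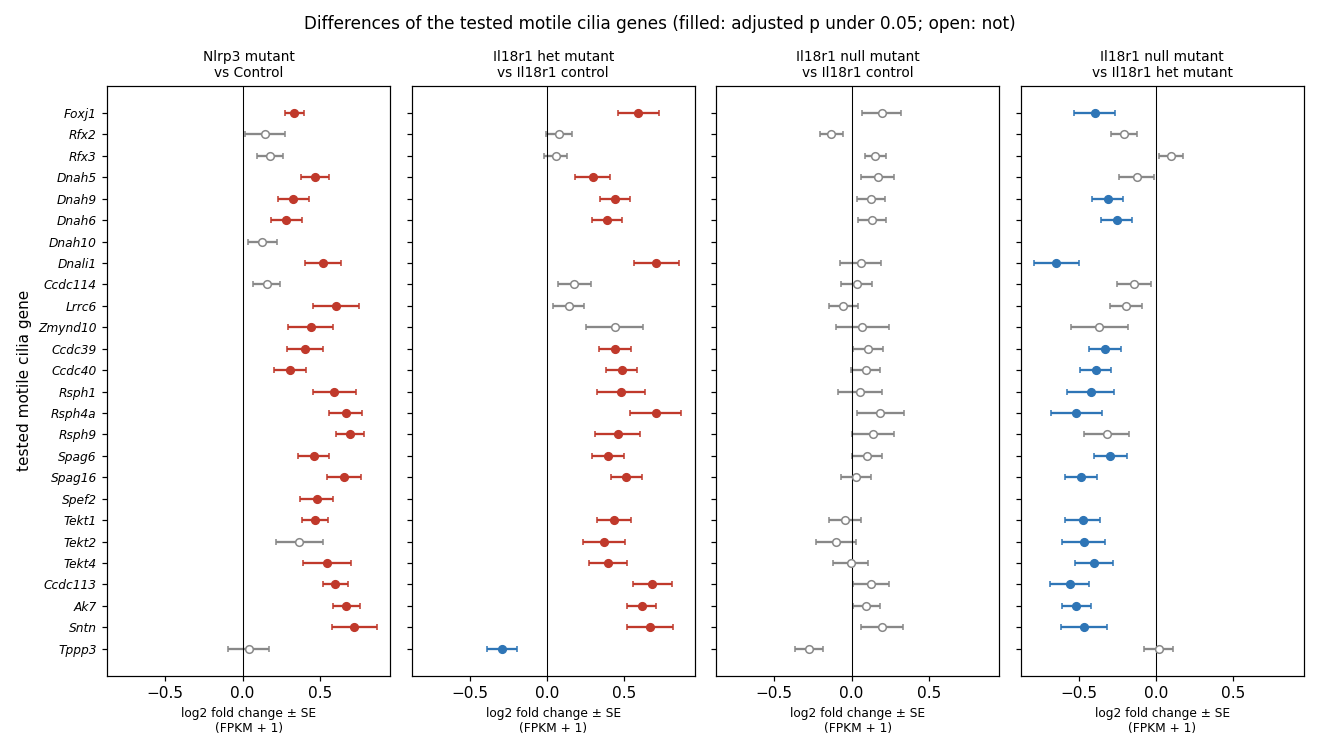
Log2 fold change of log2(FPKM + 1) with its standard error for each tested motile cilia gene in the 4 comparisons; filled points passed an adjusted p of 0.05 (red higher, blue lower) and open grey points did not. The points lie right of 0 against controls in the first 2 panels apart from Tppp3, close to 0 in the third and left of 0 for 22 of 24 genes in the fourth.

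Several structural genes that rose in the het mutant fell in the null mutant against it. Both comparisons use the same het mutant libraries, so picking genes that were high in them favours a fall here. Dnali1 was at 5.82, 4.59, 4.90 and 4.30 FPKM in the null mutant, all below the lowest het mutant library, a log2 fold change of -0.65 ± 0.15 (adjusted p 0.00276). Ak7 was at 3.00, 2.36, 2.43 and 2.26 FPKM (-0.52 ± 0.09, adjusted p 0.000666) and Ccdc113 at 4.82, 3.77, 3.83 and 4.21 FPKM (-0.56 ± 0.13, adjusted p 0.00283). Spag16 was at 2.65, 1.98, 2.67 and 2.41 FPKM (-0.49 ± 0.10, adjusted p 0.00187). In each of these genes the null mutant libraries overlapped the Il18r1 controls.

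The 3 tektins fell by 0.48 ± 0.11 (Tekt1), 0.47 ± 0.14 (Tekt2) and 0.40 ± 0.12 (Tekt4) on the log2 scale. Tekt1 was at 6.52, 5.56, 7.03 and 5.95 FPKM in the null mutant against 8.48, 8.78 and 10.0 FPKM in the het mutant. Sntn, Rsph4a, Rsph1, Ccdc39, Ccdc40, Spag6, Dnah6, Dnah9 and Foxj1 also fell, by 0.47, 0.52, 0.42, 0.33, 0.39, 0.30, 0.26, 0.31 and 0.40. For Foxj1 the null mutant values were 23.9, 17.8, 22.4 and 18.3 FPKM, with replicate 1 just below the lowest het mutant library at 24.2 (adjusted p 0.0252). Dnah5 (-0.13 ± 0.11), Rsph9 (-0.32 ± 0.15), Zmynd10 (-0.37 ± 0.18), Lrrc6 (-0.19 ± 0.10), Ccdc114 (-0.14 ± 0.11) and Rfx2 (-0.21 ± 0.08) were not called, with adjusted p from 0.0527 to 0.378. Rfx3 and Tppp3 had values of 0.10 ± 0.07 and 0.02 ± 0.10 and overlapped between the groups.

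Het mutant replicate 3, the library of lowest relative depth in its experiment and the highest in its group for 19 of the genes, weighs on this comparison. Without it 7 of the 23 tested genes fell, where 3216 of all 13567 tested genes fell, and the median log2 fold change was -0.26. The adjusted p of Foxj1 was then 0.123, and it was 0.0680 and 0.0656 without null mutant replicate 2 or 4. Ak7, Ccdc113, Ccdc40, Dnali1, Spag16, Tekt1 and Tekt2 stayed called in all 7 fits that left out 1 library, which is 7 of the 16. Dnah9 could be tested only with all 3 het mutant libraries. Dnah6 lost its call in all 7 fits, with adjusted p from 0.0633 to 0.122, and at a pseudocount of 0.1 (0.0648). Rsph1 and Spag6 each lost theirs in 5 of the 7, with adjusted p up to 0.122 and 0.137, Rsph4a in 3, Sntn in 2, and Ccdc39 and Tekt4 in 1, without het mutant replicate 3. Scaling to equal total FPKM, which put the median of all genes at 0.19, left 6 of 23 genes lower and called Rfx3 higher. Of all tested genes 14.8% were then lower and 50.7% higher. The share of higher genes among all calls went from 50.3% to 77.4%. Relative to the median of all genes, the genes' median was -0.39 before and -0.40 after it, a difference that such scaling can hardly change. With only null mutant replicates 2 and 4, whose sex-linked transcripts match the het mutant, 12 of the 24 genes fell and the median was -0.46. In that fit 3183 of all 13665 tested genes fell.

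Set against the Il18r1 control, the null mutant gave no call among the 24 tested genes, with 2 genes at an unadjusted p under 0.05 (Rfx3 and Tppp3) and a lowest adjusted p of 0.213. The median log2 fold change was 0.09, against -0.0079 over all tested genes, and the background was 1.87% higher and 0.102% lower. The groups did not overlap for 1 gene upward, Rfx3 (background 5.06%), and 1 gene downward, Tppp3 (background 3.40%). Without the filter none of the 33 was called, against 1.18% higher and 0.0618% lower, and the same 2 genes did not overlap, against 4.13% and 2.70%. Rfx3 was at 2.67, 3.06, 3.01 and 2.77 FPKM in the control and 3.10, 3.42, 3.32 and 3.42 FPKM in the null mutant, a change of 0.15 ± 0.07 (adjusted p 0.477). In the authors' deposited table none of the 33 was higher and 1 was lower, Tppp3, at -0.26 ± 0.07 with adjusted p 0.00891 (backgrounds 3.02% and 0.719%). limma gave Tppp3 -0.28 ± 0.09 with adjusted p 0.213. Among the other genes the changes ran from -0.13 (Rfx2) to 0.20 (Sntn), Foxj1 had 0.19 ± 0.12, and a p that misses the threshold does not show that the groups are alike. With only null mutant replicates 1 and 3, whose sex-linked transcripts match the Il18r1 control, there was again no call and the median was 0.14.

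Promoters were read for the factors that are known to act on cilia genes. RefSeq windows of 300 bases on GRCm38.p6, from 250 before to 50 after the start, were matched by symbol for 29 of the 35 genes (all but Foxj1, Rsph1, Rsph4a, Lrrc6, Tppp3 and Dnah3). The X-box of RFX factors, searched on both strands as GTNNCC followed 3 bases later by GNAAC, with N for any base, was found in 5 of the 29 genes (17.2%), against 673 of 27025 genes with a window (2.49%). The core forkhead motif GTAAACA was found in 2 of the 29 (6.90%), against 1095 of the 27025 genes (4.05%). A match is a description of letters and not a bound site, and the absence of one in this window says nothing of the factor.

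The windows of 4 genes that rose in both the Nlrp3 mutant and the het mutant and fell in the null against the het mutant are shown with the matches in capitals, 5′ to 3′ on the strand of the gene. All 4 lie on the plus strand: Spag16 at chr1:69826720-69827019, Tekt4 at chr17:25471340-25471639, Ak7 at chr12:105705732-105706031 and Sntn at chr14:13670626-13670925. Spag16 holds an X-box that begins 103 bases before the start, and Tekt4 holds 1 that begins 160 bases before it and another on the opposite strand that begins at it. Ak7 holds a forkhead motif on the opposite strand, 131 bases before the start, and Sntn 1 that begins 236 bases before it.
Spag16: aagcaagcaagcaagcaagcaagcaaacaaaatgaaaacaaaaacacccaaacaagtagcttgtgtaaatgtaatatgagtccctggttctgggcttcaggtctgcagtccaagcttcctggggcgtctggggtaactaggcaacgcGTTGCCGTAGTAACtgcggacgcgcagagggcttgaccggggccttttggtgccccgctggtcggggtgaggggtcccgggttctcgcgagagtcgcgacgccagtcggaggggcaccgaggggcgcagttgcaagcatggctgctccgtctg
Tekt4: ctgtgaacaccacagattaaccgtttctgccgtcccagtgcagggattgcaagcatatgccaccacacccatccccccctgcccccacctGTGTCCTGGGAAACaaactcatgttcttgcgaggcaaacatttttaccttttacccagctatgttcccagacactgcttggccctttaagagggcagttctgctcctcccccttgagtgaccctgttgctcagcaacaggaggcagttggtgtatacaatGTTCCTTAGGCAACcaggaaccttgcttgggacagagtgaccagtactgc
Ak7: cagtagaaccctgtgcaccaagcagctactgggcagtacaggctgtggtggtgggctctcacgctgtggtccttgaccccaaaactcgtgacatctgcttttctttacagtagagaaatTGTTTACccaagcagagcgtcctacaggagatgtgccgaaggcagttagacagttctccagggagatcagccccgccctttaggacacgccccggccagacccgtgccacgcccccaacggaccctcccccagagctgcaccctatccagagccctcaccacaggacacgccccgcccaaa
Sntn: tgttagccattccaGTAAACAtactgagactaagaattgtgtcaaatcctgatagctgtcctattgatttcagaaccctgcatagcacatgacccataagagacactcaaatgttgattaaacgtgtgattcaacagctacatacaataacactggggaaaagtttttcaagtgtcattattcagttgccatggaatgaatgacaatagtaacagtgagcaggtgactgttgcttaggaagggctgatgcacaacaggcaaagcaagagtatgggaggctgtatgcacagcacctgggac

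The other 3 X-box matches lie in Ccdc114, Hydin and Zmynd10, and the next lines show the match alone.
Ccdc114: GTCTCCCCAGTAAC
Hydin: GTTGCTGTGGCAAC
Zmynd10: GTTTCCATGGCGAC
The Ccdc114 match begins 15 bases before the start in the window chr7:45923965-45924264, the Hydin match 21 bases before it in chr8:110266727-110267026 and the Zmynd10 match at the start in chr9:107547054-107547353. Hydin and Zmynd10 match on the opposite strand, so the capitals give the gene strand. Ccdc114 was not called in any comparison, Zmynd10 rose only in the Nlrp3 mutant among the 4 comparisons, and Hydin was below the filter in both tables, with the values given above. The motif was thus present both in genes that were called and in genes that were not.

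Further genes of the motile cilium, 92 in 8 lists, were looked at in the same way. In the Nlrp3 mutant 42 of the 73 tested rose and 3 fell (median log2 fold change 0.36), where 28.0% of all genes rose and 27.6% fell. In the het mutant 41 of 70 rose and 4 fell (median 0.37), where 27.3% of all genes rose and 28.9% fell. In null against het mutant 36 of 70 fell and 3 rose (median -0.28), where 26.5% of all genes fell and 26.8% rose. In null mutant against Il18r1 control none of 70 was called (median 0.06), where 1.87% of all genes rose and 0.102% fell. At equal total FPKM the counts were 29 higher and 3 lower of 72 in the Nlrp3 mutant, 28 higher and 8 lower of 70 in the het mutant, and 15 lower and 7 higher of 70 in null against het mutant. With that scaling 17.6% of all genes rose in the Nlrp3 mutant and 18.1% in the het mutant, and 14.8% fell in null against het mutant. Of the dynein arm subunits and docking proteins outside the 33 genes, 6 rose and 1 fell of 11 in the Nlrp3 mutant and 4 rose and 1 fell of 10 in the het mutant, and at equal total FPKM 1 rose and 1 fell in the Nlrp3 mutant and 2 rose and 1 fell in the het mutant. Of the nexin-dynein regulatory complex, 7 of 8 rose in the Nlrp3 mutant and 5 of 8 in the het mutant, among them Drc7 (0.44 and 0.65) and Lrrc48 (0.51 and 0.43). Of the inner microtubule and ribbon genes, 8 of 12 rose and 1 fell in the Nlrp3 mutant, and 9 of 12 rose and none fell in the het mutant. Radial spoke genes outside the list counted 6 of 10 and 6 of 9 higher, and central pair genes 3 of 4 and 3 of 3. Genes used as markers of ciliated cells counted 10 of 14 and 9 of 14, led by Ccdc153, which went from 10.4 to 22.7 FPKM in the first experiment and from 9.07 to 18.1 FPKM in the second.

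Regulators and assembly factors were listed apart from the structural genes. Of the 8 tested regulators of multiciliated cell formation, 1 rose and 1 fell in the Nlrp3 mutant (median 0.04). In the het mutant 2 rose and 2 fell (median 0.03). Of all genes 28.0% rose and 27.6% fell in the Nlrp3 mutant, and 27.3% rose and 28.9% fell in the het mutant. Trp73, a p53 family factor upstream of Foxj1, rose by 0.33 in the Nlrp3 mutant, and Ccno, needed for centriole amplification, by 0.47 in the het mutant. At equal total FPKM no regulator was called higher in the Nlrp3 mutant, Trp73 included. Rfx1, a widely expressed RFX factor, fell by 0.48 and 0.47 and was higher in the null than in the het mutant by 0.37. Dynein assembly factors outside the list counted 1 of 6 higher in the Nlrp3 mutant, and 3 higher and 1 lower of 6 in the het mutant. Genes of primary cilia and intraflagellar transport, which most cells of the lung use, counted 7 higher and 4 lower of 40 in the Nlrp3 mutant (median 0.04) and 10 higher and 7 lower in the het mutant (median 0.05), against backgrounds of 28.0% and 27.3% higher. At equal total FPKM the medians turned negative for the regulators (-0.11 and -0.09), for the primary cilium genes (-0.10 and -0.06) and, in the Nlrp3 mutant, for the assembly factors (-0.02), while those of the dynein arm, radial spoke, central pair, nexin-dynein and inner microtubule lists stayed positive. That scaling put the median of all genes at -0.15 in the Nlrp3 mutant and -0.16 in the het mutant. The list medians that turned negative lay above these. No difference between these lists was tested.

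**Figure D4:**
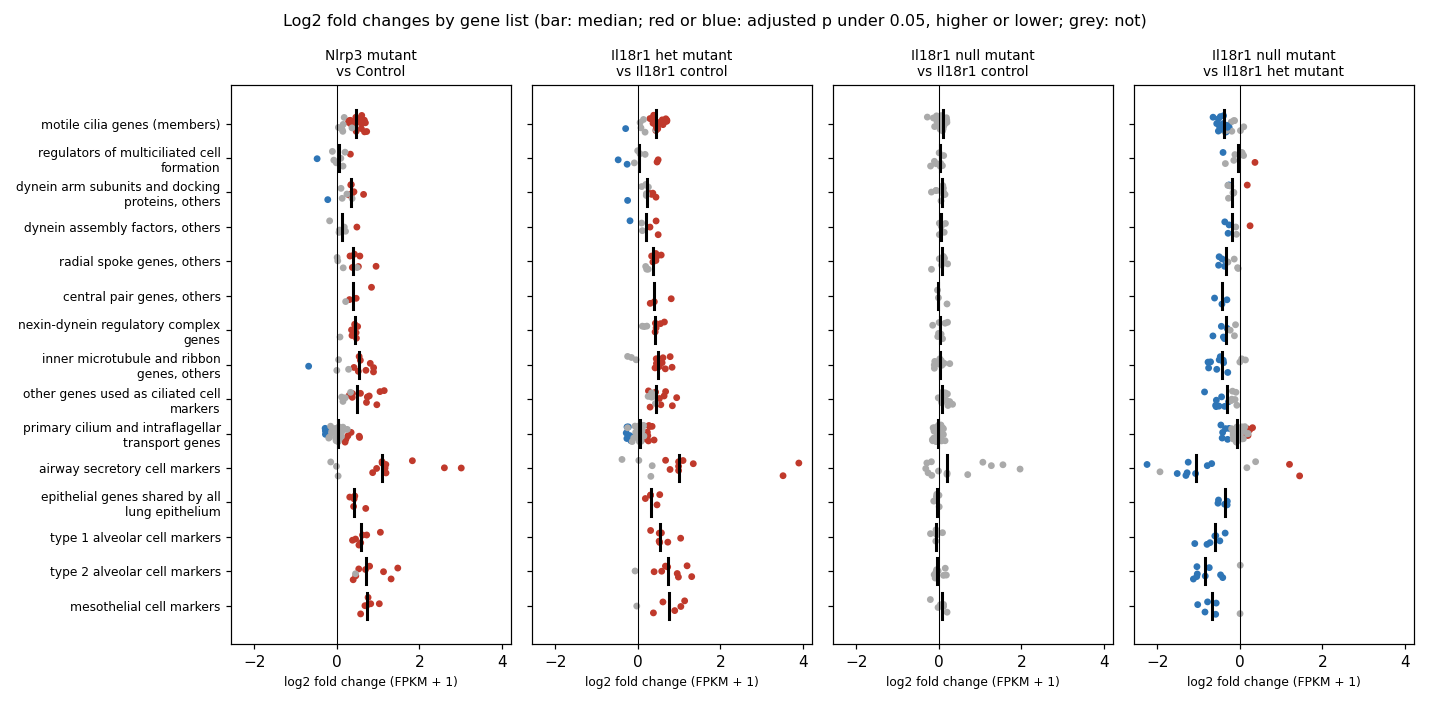
Log2 fold changes of log2(FPKM + 1) of the tested genes of each list in the 4 comparisons; points are genes (red higher, blue lower, grey not called) and black bars are medians. Primary cilium genes centre near 0 in all panels. By median, the airway secretory list lies on the same side as the motile cilia genes in all 4. The shared epithelial, type 1 and type 2 alveolar lists do so in 3 of the 4.

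Markers of other lung cells moved in the same comparisons, and their counts are set against the same shares of all genes, 28.0% higher in the Nlrp3 mutant, 27.3% higher in the het mutant and 26.5% lower in null against het mutant. Airway secretory markers rose for 10 of 13 tested genes in the Nlrp3 mutant (median 1.10) and 9 of 13 in the het mutant (median 0.99), and 8 fell and 2 rose in null against het mutant. Their summed level was 11692 to 17475 FPKM in Control, 27875 to 29396 in the Nlrp3 mutant, 14762 to 17425 in the Il18r1 control, 29516 to 30635 in the het mutant and 12389 to 15336 in the null mutant, with the club cell gene Scgb1a1 the most abundant. The 5 epithelial genes shared by all lung epithelium, such as Epcam and Cdh1, rose in both mutants with medians of 0.42 and 0.31 and fell in null against het mutant, and all 7 type 1 and 8 of 9 type 2 alveolar markers were called in the same directions. At equal total FPKM the shared epithelial calls were 3 of 5, 2 of 5 and, in null against het mutant, 3 of 5. The shared epithelial genes summed to 332 to 349 FPKM in Control and 429 to 506 in the Nlrp3 mutant, and to 294 to 310 in the Il18r1 control, 375 to 405 in the het mutant and 282 to 312 in the null mutant. Type 2 alveolar markers summed to 19546 to 21297 and 26730 to 33740 FPKM in the first experiment, and to 15796 to 16711, 22859 to 23622 and 14202 to 18201 FPKM in the second. Mesothelial markers, of a cell type outside the airway, rose for 6 of 6 and 5 of 6. Neutrophil markers summed to 358 to 1277 FPKM in Control and 9242 to 14857 in the Nlrp3 mutant, to 204 to 305 in the Il18r1 control, 9914 to 19099 in the het mutant and 2110 to 2899 in the null mutant. Of the 6 basal cell markers only Krt15 was tested, and of the 7 neuroendocrine markers 3, of which Calca rose in both mutants. The part of these changes in the levels of the cilia genes was not tested.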

How the data were processed

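Whole mouse lungs from 5 genotype groups were profiled in 17 libraries. A Qiagen kit was used for the RNA, per the labels' protocols, and stranded mRNA libraries were read from both ends on an Illumina NovaSeq. The submitters' processing notes name STAR and GRCm38 (mm10). The quantifier and annotation are not given in the sources used here. An FPKM table for each experiment was deposited by the authors. No header gives a unit, so FPKM was inferred from the values. Each table held 24354 lines, of which 27 had a date for a gene name and were dropped, which left 24327 genes. Read numbers are unknown, so no counting interval is given. The tables were treated as scaled separately and never tested against each other.

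The authors deposited 3 comparison tables as well, all for the second experiment. Per the file headers their columns are a mean normalized count (a signal over the libraries compared), a log2 fold change, its standard error and a test statistic (both kept as score values), the p-value and its adjusted form. Lines without a gene name made up 18.5% and 19.1% of the summed mean counts against the control and were dropped. The sign of the log2 values was checked against FPKM.

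A gene was tested where 3 or more libraries of its table reached 1 FPKM (13549 and 13724 genes). limma 3.58.1 (R 4.3.3) was fitted to log2(FPKM + 1) with a prior variance that follows the mean level, over 6 libraries in the first experiment and over all 11 in the second, whose comparisons therefore share the spread. Benjamini-Hochberg adjustment ran over all tested genes with a threshold of 0.05, and "rose", "fell" and "called" mean past it. Nothing in the labels says that each library is its own animal, so the spread behind a p-value may be technical. The fit was tested on simulated data.

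The motile cilia genes and all other lists were chosen with earlier results of these data known. Every motile cilia gene is named. From the other lists the text names genes among the 3 smallest p of a comparison, Xist, and Scgb1a1 for its level. Gene coordinates are GENCODE M21 (GRCm38) and promoters RefSeq (GRCm38.p6). Counts and figures were made in Python 3.11.15 (pandas 2.3.3, numpy 2.4.6, matplotlib 3.10.9). The alternatives were median-of-ratios and equal-total scaling, a pseudocount of 0.1, alone or with a filter of 0.1 FPKM, no filter, a filter on a mean of 5 FPKM, the replicate number as a block, array weights with a robust fit, a fit of the compared groups alone, null mutant libraries with matching sex-linked transcripts, the authors' deposited tables and leaving out each library.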

Additional observations from a re-analysis of the deposited data

Results flagged for a closer look

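Spag17, a central apparatus gene, was at 0.384 FPKM in Il18r1 null mutant replicate 3, while the other 3 libraries of that group lay between 0.529 and 0.544 FPKM. The gap to the nearest of them was 0.904 of the whole range of the group, past Dixon's critical value for 4 samples. It was the only such library among 66 groups of 4 looked at (33 genes in the Il18r1 control and the null mutant), and chance gives about 1 in 20.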

How the results depend on the processing

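The counts of called genes were 20, 19, 0 and 16 in Nlrp3 mutant against Control, het mutant against Il18r1 control, null mutant against Il18r1 control and null against het mutant. A mean of at least 5 FPKM left 9, 6, 6 and 6 genes tested and 8, 6, 0 and 4 called. Equal total FPKM called 7 in null against het mutant, of which 1 was higher. In null mutant against Il18r1 control the robust fit with array weights and the authors' deposited table each called 1 gene, Tppp3, lower; the array weights stopped before full convergence. Without 1 library the counts ran from 15 to 19, from 14 to 20, 0 throughout, and from 7 to 14, the 7 being without het mutant replicate 3; where this left a gene below the filter it was not tested. The other alternatives left each count within 1.5 times its main value. Replicate numbers as a block gave 18, 17, 0 and 14 calls and moved no count by over 1.5 times. Deviations of same-numbered libraries from their group means correlated by -0.08 to 0.11 in the first experiment and -0.10 to 0.27 in the second. The 0.27 was between replicate 1 of the Il18r1 control and of the null mutant. Whether the number marks a pairing was not tested, and the labels do not say. Single genes gave 1501 values under the alternatives; the sign changed in 38 of them, in 11 genes, and in none that was called before or after. FPKM below 1 rests on few reads, and the number of reads behind each value is unknown in these tables.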

Other observations

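A few genes of the cilium moved against the rest. Mns1, an inner microtubule protein of motile cilia and sperm flagella, was at 5.70 FPKM in Control and 3.18 FPKM in the Nlrp3 mutant (log2 fold change -0.68, limma adjusted p 0.000138), while Enkur of the same list went from 5.77 to 10.9 FPKM (0.81). In the het mutant Mns1 was not called (-0.25, adjusted p 0.109). Dnal1, a light chain of the outer dynein arm, fell by 0.22 in the Nlrp3 mutant and by 0.25 in the het mutant and was higher in the null than in the het mutant by 0.18. The assembly factor Dnaaf2 fell by 0.19 in the het mutant and was higher in the null than in the het mutant by 0.25, against 0.44 and -0.28 for Dnaaf3.

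Within primary cilium genes the calls were mixed, with 7 higher and 4 lower of 40 in the Nlrp3 mutant. The het mutant had 10 higher and 7 lower, and null against het mutant 5 higher and 6 lower. The shares of all genes were 28.0%, 27.3% and 26.8% higher and 27.6%, 28.9% and 26.5% lower. At equal total FPKM 2 were higher and 10 lower in the Nlrp3 mutant, and 2 higher and 11 lower in the het mutant. The genes named next all rose in both mutants. Bbs2 and Bbs9, subunits of the BBSome that carries cargo through the cilium, rose in the Nlrp3 mutant (0.54 and 0.55) and the het mutant (0.35 and 0.26) and fell in null against het mutant (-0.46 and -0.41). Traf3ip1, an intraflagellar transport protein, rose by 0.35 in the Nlrp3 mutant and by 0.27 in the het mutant. The cause of these differences between genes of a structure was not tested.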
